A study of Mus musculus with 24 samples.

Results

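Cytochrome P450 enzymes of families 2 and 3 (genes named Cyp2 and Cyp3) are heme proteins of the endoplasmic reticulum that oxidize drugs, toxicants, steroids, bile acids and fatty acids, and the liver is their main site. They take electrons from the reductase Por and heme from a pathway that starts with Alas1, and many are induced through the nuclear receptors CAR (Nr1i3) and PXR (Nr1i2). In the mouse liver several also follow the time of day, among others through the PAR bZIP factors Dbp, Tef and Hlf, and several differ between the sexes through growth hormone. In these livers 36 genes of the families were expressed. Their summed mRNA was alike in both genotypes. With a wave fitted in common to both genotypes, 9 of them (25%, against 30.6% of all genes) had a daily rhythm. They include Cyp2g1, which was selected through its own peak. With each genotype tested alone, Cyp2a5 was the only member that passed in both. Cyp2a5 was also the member with the smallest p for a difference in level between the genotypes, although it did not pass the correction over all genes.

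The 36 members were the genes whose names start with Cyp2 or Cyp3 followed by a letter, without names of pseudogenes, whose average over the 24 libraries reached 1 FPKM. FPKM is a fragment count corrected for transcript length and for how many fragments of the library mapped. The members were selected on this mean level out of 58 names of the families, out of 11244 genes that reached 1 FPKM and out of 54733 genes in the tables, so their levels are described without a test. Family 2 gave 32 members and family 3 gave 4. The poly(A) RNA came from livers of male C57BL/6 mice, either wild type (WT) or ΔRRE. ΔRRE mice carry a Cas9-made deletion of the RRE elements of the clock gene Bmal1 (Arntl), elements that REV-ERB and ROR receptors bind, and WT mice served as the controls. Mice were kept in constant darkness and killed on the second day at projected circadian time (CT) 2, 6, 10, 14, 18 or 22, and 2 libraries were made per genotype and time point. The study's methods give 8 to 24 weeks as the age for collected tissues. The labels do not say that libraries of a group came from separate animals, so p-values measure the spread between these libraries.

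As a check of the labels, Arntl was read first. In the WT libraries numbered 1 and 2 it stood at 12.6 and 13.2 FPKM at CT2 and at 0.195 and 0.0919 FPKM at CT10. In the ΔRRE libraries it stood at 3.58 and 3.16 FPKM at CT2 and at 2.50 and 2.1 FPKM at CT10. Over all time points the ΔRRE libraries stayed between 2.1 and 4.21 FPKM. At CT6 the genotypes lay close, with 2.42 and 2.86 FPKM in WT and 3.01 and 4.21 FPKM in ΔRRE. At CT14 WT stood at 2.21 and 1.15 FPKM and ΔRRE at 2.59 and 2.49 FPKM. Hepatocyte transcripts dominated, with Alb at a mean of 27420 FPKM. The 6 pancreas markers summed to at most 1.08 FPKM and the 4 kidney markers to at most 0.317 FPKM in any library.

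Before the members are compared, 2 ΔRRE libraries need to be named, the first of CT10 and the first of CT14. The summed FPKM of 20 acute-phase genes, which the liver raises in inflammation, was 17048 and 20620 in them and between 5873 and 12788 in the other 22 libraries. Red cell transcripts (4 globin genes and Alas2) summed to 4322 and 4451 FPKM against 466 to 2062 FPKM in the others. Female-biased genes outside the families summed to 22.0 and 26.0 FPKM, with a single other library at that level, the first WT library of CT14 at 24.7 FPKM. Periportal markers summed to 8538 and 8001 FPKM against 3402 to 6234 FPKM, and pericentral markers to 1153 and 1022 FPKM against 1105 to 1794 FPKM. Results below are therefore also given without these libraries where a call, a direction or an amplitude compared between the genotypes changed markedly, and the part of these transcripts in the results was not tested.

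Sequences of the regions just before the start sites are shown for members that the results turn on, 2 pairs of paralogs with nearly the same promoter and a relative of each pair. They are from RefSeq on GRCm38.p6, the release of mm10, and 31 of the 36 members had an entry. The first 3 cover the 150 bases before the start site of genes of the 2a subfamily: Cyp2a5 at chr7:26835189-26835338, Cyp2a4 at chr7:26307042-26307191 and Cyp2a12 at chr7:27028940-27029089, all on the plus strand. Capitals mark TTATGCAA on the opposite strand, a variant of the D-box bound by PAR bZIP factors, which was searched for after these sequences had been seen.
Cyp2a5: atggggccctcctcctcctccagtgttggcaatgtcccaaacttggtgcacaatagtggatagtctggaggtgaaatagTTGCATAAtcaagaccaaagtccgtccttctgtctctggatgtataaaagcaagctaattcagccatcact
Cyp2a4: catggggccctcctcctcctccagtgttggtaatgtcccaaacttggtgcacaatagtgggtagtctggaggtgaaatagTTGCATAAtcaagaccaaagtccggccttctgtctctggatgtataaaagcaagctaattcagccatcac
Cyp2a12: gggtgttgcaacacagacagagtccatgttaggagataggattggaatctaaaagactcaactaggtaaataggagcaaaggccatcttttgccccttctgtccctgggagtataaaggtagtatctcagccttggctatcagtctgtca
Cyp2a5 and Cyp2a4 both held these letters, 71 and 70 bases before the start site, and their promoters were 98.3% identical over 299 aligned bases. Cyp2a12, a neighbour on the chromosome, did not hold them. Among all 32851 promoters of 300 bases, 0.743% held TTATGCAA on either strand, and of the members Cyp2b10 did too.

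The next 3 cover bases 200 to 101 before the start site of genes of the 3a subfamily: Cyp3a25 at chr5:146009718-146009817 on the minus strand, Cyp3a59 at chr5:146079058-146079157 on the plus strand and Cyp3a11 at chr5:145879955-145880054 on the minus strand. Capitals mark AGGTCA on either strand, the half-site of many nuclear receptors.
Cyp3a25: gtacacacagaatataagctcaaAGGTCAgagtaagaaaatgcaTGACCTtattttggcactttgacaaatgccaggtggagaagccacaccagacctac
Cyp3a59: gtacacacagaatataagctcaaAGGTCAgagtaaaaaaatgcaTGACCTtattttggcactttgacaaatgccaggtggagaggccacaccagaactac
Cyp3a11: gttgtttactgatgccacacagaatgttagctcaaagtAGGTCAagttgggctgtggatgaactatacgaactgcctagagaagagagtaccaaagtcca
Cyp3a25 and Cyp3a59 held a pair of half-sites on opposite strands with 15 bases between them, in promoters that were 96.3% identical. Cyp3a11 held 1 half-site. In the 300-base promoters, which run past the start site, 11 of 31 members (35.5%) and 16.3% of all promoters held AGGTCA on either strand. In Cyp2a4, Cyp2a5 and Cyp2d40 the only half-site lay after the start site, at bases 30, 29 and 32. The E-box CACGTG was found in 1 member (Cyp2j6) and 7.15% of all promoters, the D-box TTANGTAA in 1 member (Cyp2c38) and 2.32% of all, and the RRE consensus in 1 member (Cyp3a11) and 0.384% of all. The RRE contains the half-site. Letters found in a promoter are a description and do not show that a factor binds there.

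Cyp2e1, which oxidizes ethanol and acetaminophen in pericentral hepatocytes, was the most abundant member, with 2931 FPKM ± 521 (SD over 24 libraries), and was the 37th of all genes by mean level. It alone made up 30.1% of the members' sum. Cyp3a11, the main drug-oxidizing enzyme of the mouse 3a subfamily and a PXR target, followed with 1479 FPKM ± 328, and Cyp2c29, which forms epoxides of arachidonic acid, with 641 FPKM ± 150. These 3 genes together held 51.8% of the sum. In whole liver, fewer cells of a type and less RNA per cell cannot be told apart. The next were Cyp2f2, a periportal enzyme known for activating naphthalene, with 518 FPKM ± 69.7, Cyp2c50 with 425 FPKM ± 87.1 and Cyp2d9, a male-predominant testosterone hydroxylase, with 389 FPKM ± 112. Cyp2a5, which hydroxylates coumarin, had 384 FPKM ± 255, and Cyp2d26, Cyp2d10 and Cyp2c70, the last an enzyme of muricholic acid synthesis, had 375, 369 and 352 FPKM. From Cyp2c50 to Cyp2c70 neighbours in this order differed by less than 1 SD.

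**Figure D1:**
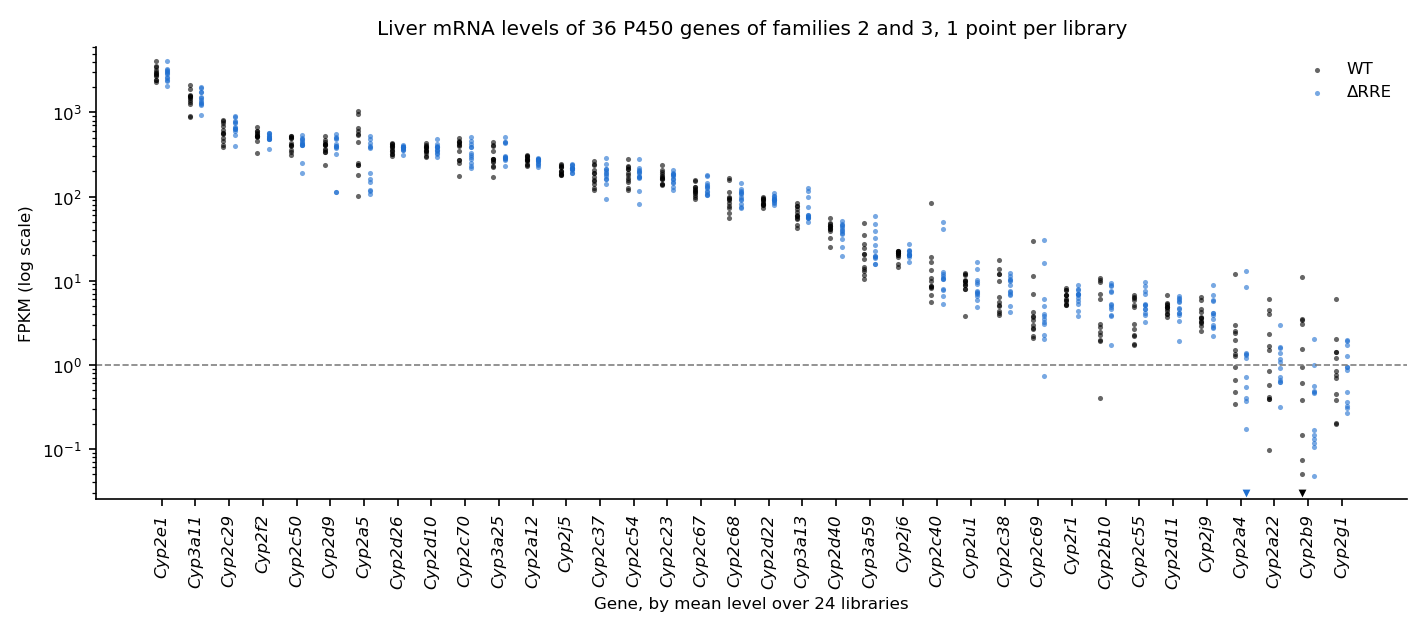
Level of each member in FPKM on a log axis, ordered by mean, with 1 point per library (black WT, blue ΔRRE, 12 each) and the limit of 1 FPKM dashed. Triangles at the bottom mark the 2 values listed at 0. Cyp2e1 lies at 2091 FPKM or above in every library and Cyp2a5 spreads from 102 to 1029 FPKM.

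The lowest members lay near the limit of selection. Just inside it were Cyp2g1, known from the olfactory mucosa, with a mean of 1.12 FPKM, the female-predominant Cyp2b9 with 1.27 FPKM and Cyp2a22 with 1.52 FPKM. Cyp2c39, Cyp3a16 and Cyp2d34 lay just outside with 0.614, 0.612 and 0.583 FPKM. Of 22 names below the limit, 8 were listed at 0 in all libraries. The place of some members rested on few libraries, since Cyp2b9 stood at 11.03 FPKM in the first WT library of CT2 and at 3.48 FPKM or less in the other 23. Other low members with a single gene in their subfamily were Cyp2u1, a fatty acid hydroxylase, with 9.10 FPKM and Cyp2r1, a vitamin D hydroxylase, with 6.45 FPKM. Cyp2j5, an arachidonic acid epoxygenase, led its subfamily with 212 FPKM, and Cyp2b10, the classical CAR target, led its own with 5.40 FPKM.

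Members also differed in steadiness. Cyp2a12 ranged from 225 to 309 FPKM over all libraries, 1.37-fold, Cyp2j5 1.38-fold and Cyp2d26 1.43-fold. The ratio of the highest to the lowest library was 10.1 for Cyp2a5, 16.1 for Cyp2c40, 27.4 for Cyp2b10, 40.9 for Cyp2c69 and 62.7 for the low Cyp2a22. Cyp2a12 and Cyp2a5 belong to the same subfamily on chromosome 7, where the 4 members of the 2a subfamily span 730 kb. The 6 members of 2d spanned 424 kb on chromosome 15 and the 3 of 2j 148 kb on chromosome 4. The 12 of 2c spanned 5022 kb on chromosome 19, with Cyp2c23 away from the others, and the 4 of 3a spanned 8220 kb on chromosome 5, with Cyp3a13 away from the others. Chromosome 7 also held the 2b subfamily and the single members of 2e, 2f, 2g and 2r, of which Cyp2e1 and Cyp2r1 lay far from the rest.

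Near-identical paralogs limit how far single genes can be told apart, because 150-base reads that fit several genes could be split among them. Coding sequences of Cyp2a4 and Cyp2a5 were 98.4% identical, those of Cyp2c40 and Cyp2c68 98.1%, Cyp2c40 and Cyp2c69 97.9%, Cyp2c40 and Cyp2c67 97.7%, and Cyp3a25 and Cyp3a59 97.5%. In the annotation, 16 members shared at least 1 window of 150 bases with the transcript of another gene. The share was over 10% of windows in 3 members, 29.1% for Cyp2c40, 22.5% for Cyp2c69 and 13.0% for Cyp2c67, and it was 5.79% for Cyp2a5 and 4.22% for Cyp2a4.

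Summed over the members, WT livers held 9842 FPKM ± 910 and ΔRRE livers 9646 FPKM ± 853 (SD, n = 12 libraries each). The lowest, median and highest WT sums were 8152, 9892 and 11366 FPKM, and those of ΔRRE were 8134, 9657 and 10803 FPKM, so the ranges nearly coincided. The members took 1.67% ± 0.162 of all FPKM in WT and 1.69% ± 0.149 in ΔRRE. By time point the WT mean was highest at CT10 with 10686 FPKM ± 486 and lowest at CT2 with 9254 FPKM ± 1560 (SD, n = 2), a difference smaller than the spread at CT2. Subfamily sums showed the largest gap for 2a, with medians of 738 FPKM in WT and 537 FPKM in ΔRRE, while those of 2c were 2214 and 2276 FPKM and those of 3a 1880 and 1827 FPKM.

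Rhythms were tested with limma on log2(FPKM + 0.1), with a cosine and a sine of 24 h, and p-values were adjusted over all 11244 genes (Benjamini-Hochberg). The amplitude is the height of the fitted wave above its mean on the log2 scale, and adding 0.1 FPKM makes it smaller for genes of low level. A shared rhythm here is a wave fitted in common to both genotypes, and a call does not require a rhythm in each. By this test 9 of 36 members (25%) passed at an adjusted p under 0.05, against 30.6% of all genes tested. Rhythmic members were thus not more frequent than among all genes. The median amplitude was 0.23 for the members and 0.17 for all genes. The rhythmic members were Cyp2a5, Cyp2g1, Cyp2j5, Cyp2a4, Cyp2c29, Cyp3a25, Cyp3a59, Cyp2j9 and Cyp2e1. Cyp2g1 is kept in this and later counts although it was selected through its own peak, as given below. The same 9 passed without the 2 libraries named above.

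Cyp2a5 had the strongest rhythm by its p. From CT2 to CT22 the 2 WT libraries stood at 236 and 102, 551 and 178, 959 and 652, 1029 and 595, 542 and 440, and 236 and 249 FPKM. The 2 ΔRRE libraries stood at 117 and 106, 149 and 189, 524 and 375, 404 and 480, 430 and 392, and 120 and 163 FPKM. Both genotypes were low at CT2 and high from CT10 to CT18. The shared amplitude was 1.18 ± 0.12 (SE) on the log2 scale with a peak at CT13.3 (limma adjusted p = 3.45e-07). Cyp2a4, its near-identical neighbour and a female-predominant testosterone hydroxylase, peaked at CT13.0 with an amplitude of 1.63 ± 0.31 (limma adjusted p = 0.0015), at a mean level of 2.38 FPKM.

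The Cyp2a4 values rested on a few libraries. In WT they were 1.95 and 0.338 FPKM at CT2, 3.0 and 0.928 at CT6, 2.51 and 1.35 at CT10, 11.9 and 1.26 at CT14, 2.4 and 1.51 at CT18, and 0.472 and 0.65 at CT22. In ΔRRE they were 0 and 0.173 FPKM at CT2, 0.375 and 0.713 at CT6, 12.9 and 1.21 at CT10, 8.51 and 1.32 at CT14, 1.33 and 1.38 at CT18, and 0.399 and 0.542 at CT22. The 3 high values were those of the 3 libraries in which the female-biased genes were highest. Without the 2 ΔRRE libraries the shared amplitude was 1.26 (limma adjusted p = 0.00522).

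**Figure D2:**
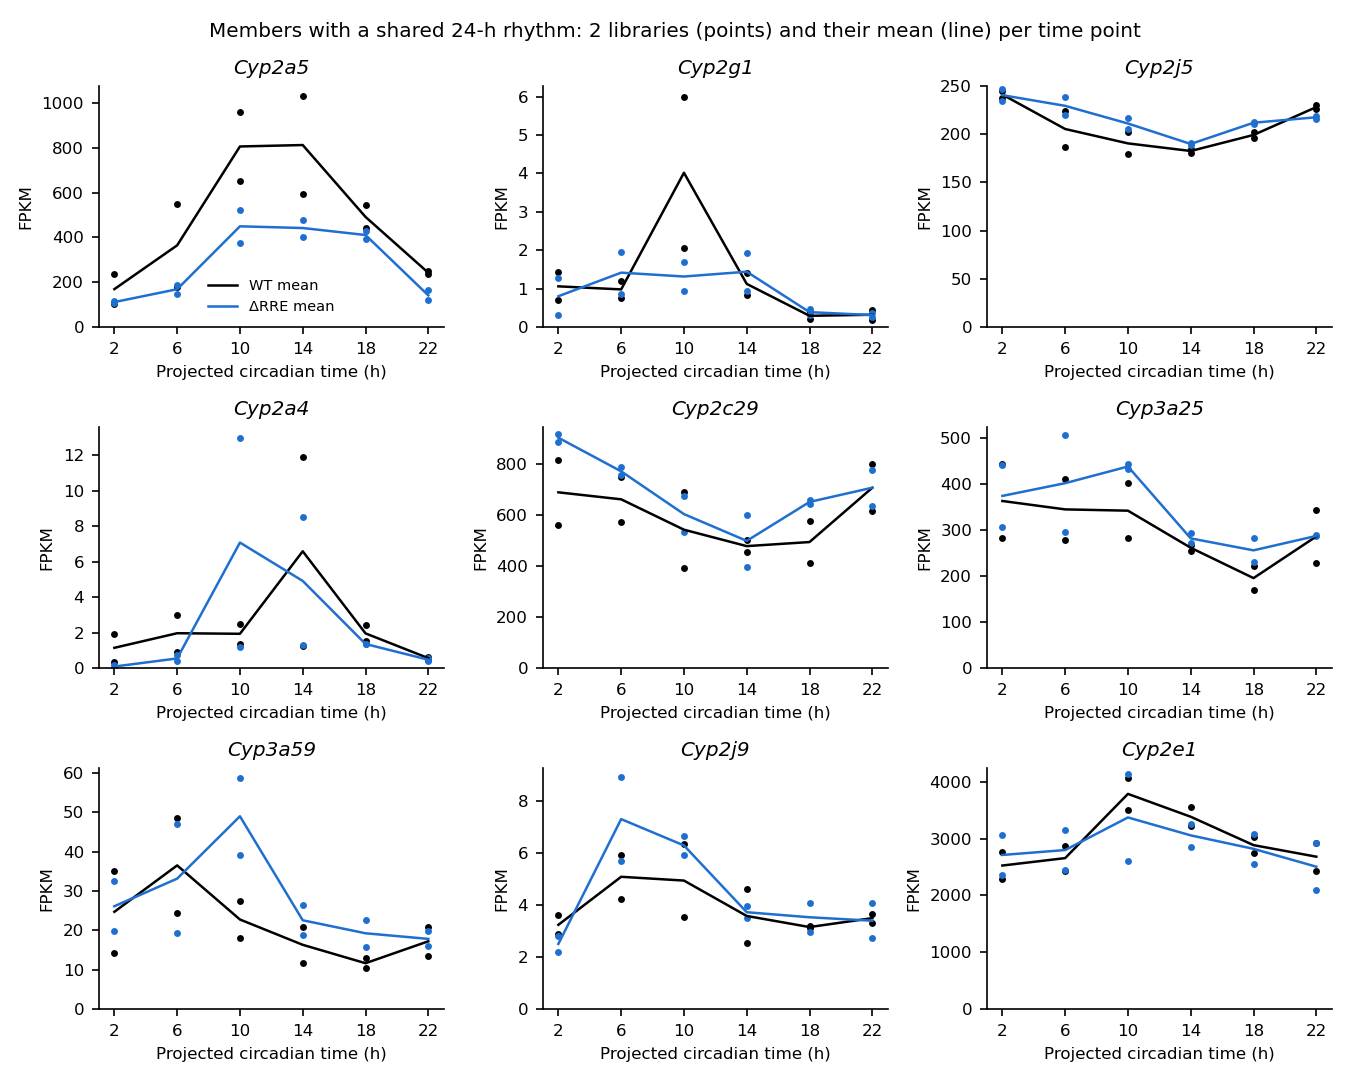
FPKM of the 9 members with a shared rhythm against projected circadian time in hours, with 2 libraries per genotype and time point (points) and their mean (lines, black WT, blue ΔRRE). Cyp2a5 is high from CT10 to CT18 in both genotypes, and the 2 points of a pair often lie far apart, as for Cyp2a4 at CT14.

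Cyp3a25 and Cyp3a59, the pair with nearly the same promoter, peaked earlier. Cyp3a25 stood in WT at 443 and 283 FPKM at CT2, 410 and 279 at CT6, 401 and 282 at CT10, 268 and 255 at CT14, 222 and 168 at CT18, and 344 and 228 at CT22. In ΔRRE it stood at 441 and 306 FPKM at CT2, 506 and 296 at CT6, 432 and 442 at CT10, 271 and 292 at CT14, 281 and 229 at CT18, and 288 and 286 at CT22. All libraries of CT14 and CT18 were at 292 FPKM or below. Its amplitude was 0.38 ± 0.08 with a peak at CT6.1 (limma adjusted p = 0.00247), and that of Cyp3a59, at 24.8 FPKM on average, was 0.61 ± 0.13 with a peak at CT7.0 (limma adjusted p = 0.00437). The other members of the subfamily did not pass: Cyp3a11 had an amplitude of 0.12 (limma adjusted p = 0.6) and Cyp3a13 of 0.22 (limma adjusted p = 0.228).

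Cyp2c29 and Cyp2j5, which both act on arachidonic acid, had fitted peaks in the early subjective day. Cyp2c29 stood in WT at 816 and 560 FPKM at CT2 and at 500 and 455 FPKM at CT14, and in ΔRRE at 886 and 917 FPKM at CT2 and at 397 and 599 FPKM at CT14. Its amplitude was 0.34 ± 0.07 with a peak at CT2.0 (limma adjusted p = 0.00193), while its WT mean was 706 FPKM at CT22 and 688 FPKM at CT2. Cyp2j5 had a small but regular rhythm of 0.16 ± 0.03 with a peak at CT1.5 (limma adjusted p = 0.000618). Its libraries were at 238, 245, 235 and 247 FPKM at CT2 in WT and ΔRRE, and at 185, 181, 189 and 191 FPKM at CT14, so the 2 time points did not overlap in either genotype.

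Cyp2e1 rose late in the subjective day, with an amplitude of 0.22 ± 0.06 and a peak at CT12.0 (limma adjusted p = 0.0208). It stood in WT at 2765 and 2285 FPKM at CT2 and at 3498 and 4072 FPKM at CT10, and in ΔRRE at 3059 and 2363 FPKM at CT2 and at 2603 and 4138 FPKM at CT10. The low ΔRRE value at CT10 was that of a library named above, and without both the amplitude was 0.27 (limma adjusted p = 0.00667). Cyp2j9, at 4.19 FPKM on average, peaked at CT8.7 with an amplitude of 0.44 ± 0.11 (limma adjusted p = 0.0115). Cyp2g1 peaked at CT9.1 with an amplitude of 1.19 ± 0.19 (limma adjusted p = 0.000304), at values between 0.195 and 5.99 FPKM, near the limit of selection. Without its WT libraries of CT10, at 5.99 and 2.05 FPKM, its mean would fall below 1 FPKM. It thus became a member through the time of its peak, so its call is a description only.

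Within 1 genotype fewer members passed. In WT they were 5 of 36, with Cyp2a5, Cyp2g1, Cyp2c69, Cyp2j5 and Cyp2c23, that is 13.9% against 10.3% of all genes. Cyp2g1 is among them although it reached the limit of selection only through its WT libraries of CT10, near its fitted WT peak at CT8.9. Cyp2j5 and Cyp2c23 passed narrowly (limma adjusted p = 0.0492 and 0.0495) and did not pass with the libraries rescaled. The WT count was 1 without a filter on low values and 2 to 6 with 1 library left out. It was higher with the replicate number as a term, as given with the other alternatives. In ΔRRE they were 3, with Cyp2a5, Cyp2a4 and Cyp2c29, that is 8.33% against 4.57% of all genes, and Cyp2a5 alone remained without the 2 libraries named above. At an unadjusted p under 0.05 the counts were 14 members in WT (38.9%, all genes 27.6%) and 10 in ΔRRE (27.8%, all genes 22.6%). Cyp2a5 was the one member past the threshold in both genotypes, with amplitudes of 1.21 in WT and 1.16 in ΔRRE and peaks at CT13.0 and CT13.6. In WT it did not pass without a filter on low values (limma adjusted p = 0.0504) or with time point as a factor (limma adjusted p = 0.0924). Passing in 1 genotype only does not show a difference, which was tested by itself below. The rhythm of Cyp2c69 in WT (amplitude 1.17, limma adjusted p = 0.0295) had an adjusted p between 0.0116 and 0.0697 when each WT library was left out in turn.

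By the 3 looser criteria of the study's methods (here a p of the fitted wave under 0.3, time-point means whose highest exceeded the lowest by more than 1.5 times, and a limited spread), 15 members were rhythmic in WT, 12 in ΔRRE, 7 in both and 16 in neither. The ΔRRE count rose without the second library of CT14, but the limit on the spread could not be applied to the remaining library there. That count is therefore not comparable. Of all genes 37% met them in WT, 35.4% in ΔRRE and 22.9% in both. The 7 members were Cyp2a5, Cyp2a4, Cyp2c40, Cyp2g1, Cyp2j9, Cyp3a25 and Cyp3a59. Cyp2j5 and Cyp2e1 met them in neither genotype, since their means varied less than the criterion for the ratio of means asks.

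No member differed in rhythm between the genotypes at an adjusted p under 0.05 (limma, wave terms by genotype), while 3 had an unadjusted p under 0.05, 8.33% of the members against 2.84% of all genes. The single gene called among all, 0.00889%, was Arntl itself. The 3 members, Cyp2c67, Cyp2c40 and Cyp2c68, ranked 12th, 161st and 287th of all genes by p, each with a limma adjusted p of 0.9999. All were of the 2c subfamily, with coding sequences 97.1% to 98.1% identical. Reads could be split among them, so they cannot be counted as 3 separate results. Exact permutation tests of the difference between the fitted waves exchanged the genotype among the libraries within time points in all 46656 ways. The exact permutation p was 0.0148 for Cyp2c67, 0.0323 for Cyp2c40 and 0.0964 for Cyp2c68, unadjusted over the 36 members tested this way. Differences in mean level were not removed first and can raise these p-values, which are therefore not for the wave alone. Their fitted WT peaks were at CT5.5, CT5.4 and CT5.1, with amplitudes of 0.20, 1.0 and 0.47. In ΔRRE the amplitude was 0.28 for Cyp2c67, with a fitted peak at CT20.4, 0.60 for Cyp2c40 and 0.049 for Cyp2c68, and none of the 3 passed as rhythmic there (limma adjusted p = 0.127, 0.457 and 0.954). Without the 2 libraries named above the ΔRRE amplitude was 0.26 for Cyp2c67, 0.21 for Cyp2c40 and 0.12 for Cyp2c68.

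Cyp2c67 and Cyp2c68 are described at CT6 and CT18, chosen because the genotypes were furthest apart there in opposite directions. Cyp2c67 stood at CT6 at 131 and 155 FPKM in WT and at 112 and 106 FPKM in ΔRRE. At CT18 it stood at 92.2 and 98.2 FPKM in WT and at 135 and 176 FPKM in ΔRRE, so that the order of the genotypes turned between the time points and the pairs did not overlap. Cyp2c68 stood at CT6 at 159 and 164 FPKM in WT and at 99.6 and 80.8 FPKM in ΔRRE, and at CT18 at 76.5 and 55.9 FPKM in WT and at 113 and 109 FPKM in ΔRRE. At CT22 the pairs overlapped, with Cyp2c67 at 104 and 151 FPKM in WT and 125 and 183 FPKM in ΔRRE, and Cyp2c68 at 97.7 and 93.4 FPKM in WT and 73.7 and 108 FPKM in ΔRRE. Without the 2 libraries named above no member passed the adjusted threshold either.

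Cyp2c40, which shares the most sequence with them, was raised in single libraries. It stood at 84.3 FPKM in the second WT library of CT6, at 49.2 and 40.7 FPKM in the 2 ΔRRE libraries named above, and between 5.24 and 18.9 FPKM in the other 21. Cyp2c69 was highest in the same libraries, at 29.3, 30.2 and 16.4 FPKM, with the other 21 between 0.739 and 11.4 FPKM. The second WT library of CT6 was not high in acute-phase genes (5873 FPKM, the lowest of all) or in female-biased genes (3.89 FPKM). Whether the reads of the 2 genes can be told apart was not tested.

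**Figure D3:**
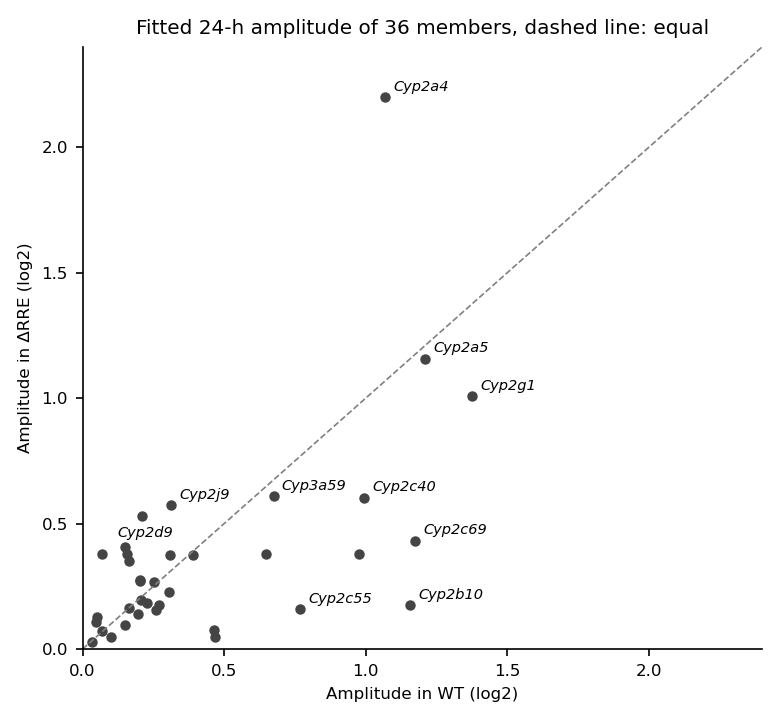
Fitted 24-h amplitude (log2) of each of the 36 members in ΔRRE against WT, with the line of equal amplitudes dashed. Cyp2a5 lies near the line, and Cyp2b10, Cyp2c69 and Cyp2c55 lie furthest below it, with differences that did not pass the test.

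For other members the amplitudes of the genotypes were far apart without passing the test. Cyp2b10 had 1.16 in WT and 0.17 in ΔRRE (exact permutation p = 0.205), and Cyp2c55, which is induced by ligands of CAR and PXR, had 0.77 and 0.16 (exact permutation p = 0.232). Cyp2a4 had 1.07 and 2.20 (exact permutation p = 0.293), and without the 2 libraries named above the ΔRRE amplitude was 1.55 for Cyp2a4 and 0.36 for Cyp2b10. The amplitude was higher in ΔRRE for 14 members (38.9%, against 46.3% of all genes) and lower for 22, with a median difference of -0.03 against -0.01 for all genes. Without the 2 libraries it was higher for 8 (22.2%, against 44.4% of all genes).

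In mean level no member differed between the genotypes at an adjusted p under 0.05 (limma with time point as a factor), where 0% of all genes passed in either direction. At an unadjusted p under 0.05 there were 3 members, 8.33% against 8.91% of all genes. Of the members 18 were higher and 18 lower in ΔRRE, while 65.5% of all genes were higher, and the median log2 difference was 0.00 against 0.04 for all genes. Cyp2b9 and Cyp2g1 are among the 18 lower members. Their ΔRRE means, 0.477 and 0.947 FPKM, lay below the limit of 1 FPKM, which they reached only through their WT libraries. Their direction was thus favoured by the selection and is a description only. The same limit was applied to all genes. With the libraries rescaled 13 members (36.1%) and 49.5% of all genes were higher, and without the 2 libraries named above 23 members (63.9%) and 66.3% of all genes. Cyp2a5 had the smallest p of the members and the 12th of all genes, with a log2 difference of -0.68 ± 0.16 (SE, limma adjusted p = 0.332). Its WT libraries had a lowest, median and highest level of 102, 491 and 1029 FPKM and its ΔRRE libraries of 106, 282 and 524 FPKM. Pair by pair the ΔRRE values lay below both WT values at CT10, CT14, CT18 and CT22, and the pairs overlapped at CT2 and CT6. An exact permutation test, two-sided, over the 46656 ways to exchange the genotype within time points gave p = 0.000557, the smallest of the 36 members tested this way. The difference was -0.68 without the 2 libraries named above.

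**Figure D4:**
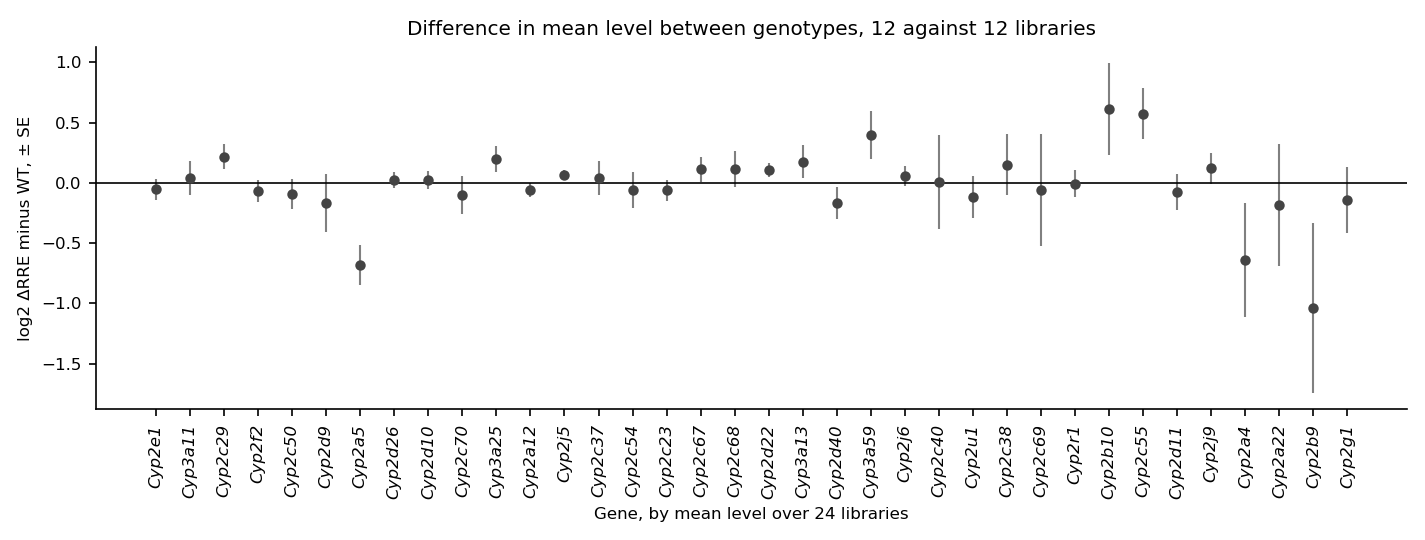
Difference in mean level, log2 of ΔRRE minus WT with its SE, for the 36 members in order of their level, from 12 libraries per genotype. Cyp2e1 and Cyp3a11, the most abundant members, lie within 1 SE of 0, and Cyp2a5 at -0.68 lies more than 4 SE below it.

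Cyp2c55 and Cyp2c29 lay on the other side. Cyp2c55 had a log2 difference of 0.57 ± 0.21 (limma adjusted p = 0.445), with medians of 3.97 FPKM in WT and 5.12 FPKM in ΔRRE. Cyp2c29 had a difference of 0.22 ± 0.10 (limma adjusted p = 0.545), with medians of 573 and 664 FPKM. The ranges of both genes overlapped widely between the genotypes. Next by p were Cyp3a59 with 0.39 ± 0.20 (limma adjusted p = 0.574) and Cyp2d22 with 0.11 ± 0.06 (limma adjusted p = 0.624). In exact permutation tests, two-sided, Cyp2c55 had p = 0.0273, Cyp2j5 p = 0.0495 at a log2 difference of 0.06, and Cyp2c29 p = 0.0596. Cyp2a4 had a difference of -0.64 ± 0.47, and of -1.14 ± 0.39 without the 2 libraries named above (limma adjusted p = 0.741 and 0.652). The differences of the most abundant members were -0.06 ± 0.09 for Cyp2e1 and 0.04 ± 0.14 for Cyp3a11.

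The 2 libraries that stood apart also differed in members. Cyp2d9 stood at 113 and 112 FPKM in them and between 235 and 560 FPKM in the other 22 libraries. Cyp2c50 stood at 253 and 189 FPKM against 311 to 543 FPKM, and Cyp2c54 at 117 and 81.4 FPKM against 118 to 282 FPKM. Cyp2r1 was also lowest in them, with 3.85 and 4.41 FPKM against 5.11 to 8.82 FPKM. Cyp3a13 went the other way, with 118 and 127 FPKM against 42.2 to 99.7 FPKM. These 5 members were chosen because both values lay outside the range of the other 22 libraries, so no test is given. Of 9 male-biased genes outside the families, 2 were below all other libraries in both: Hsd3b5, a steroid dehydrogenase, at 11.98 and 8.11 FPKM against 12.11 to 161 FPKM, and Cyp7b1, an oxysterol hydroxylase, at 37.2 and 33.0 FPKM against 39.7 to 230.0 FPKM. Slco1a1, an organic anion transporter, stood at 26.0 and 33.0 FPKM against 28.4 to 117 FPKM. The sum of the 9 genes, carried by Serpina1e with a mean of 5026 FPKM, was 7521 and 8685 FPKM, within the 5341 to 15146 FPKM of the others. Without the 2 libraries the genotype difference changed sign in 7 members, none past the threshold (limma adjusted p of at least 0.775). It turned from -0.17 to 0.19 for Cyp2d9, from -0.10 to 0.06 for Cyp2c50, from -0.06 to 0.09 for Cyp2c54 and from -0.0067 to 0.0995 for Cyp2r1. It also turned from -0.06 to 0.01 for Cyp2e1, from -0.08 to 0.08 for Cyp2d11 and from 0.0075 to -0.42 for Cyp2c40. That of Cyp3a11 went from 0.04 to 0.0041. Cyp2c69 kept its sign but went from -0.06 to -0.66 (limma adjusted p = 0.701 without the 2 libraries). Its ΔRRE amplitude went from 0.43 to 0.60 and its fitted ΔRRE peak from CT10.8 to CT0.4.

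**Figure D5:**
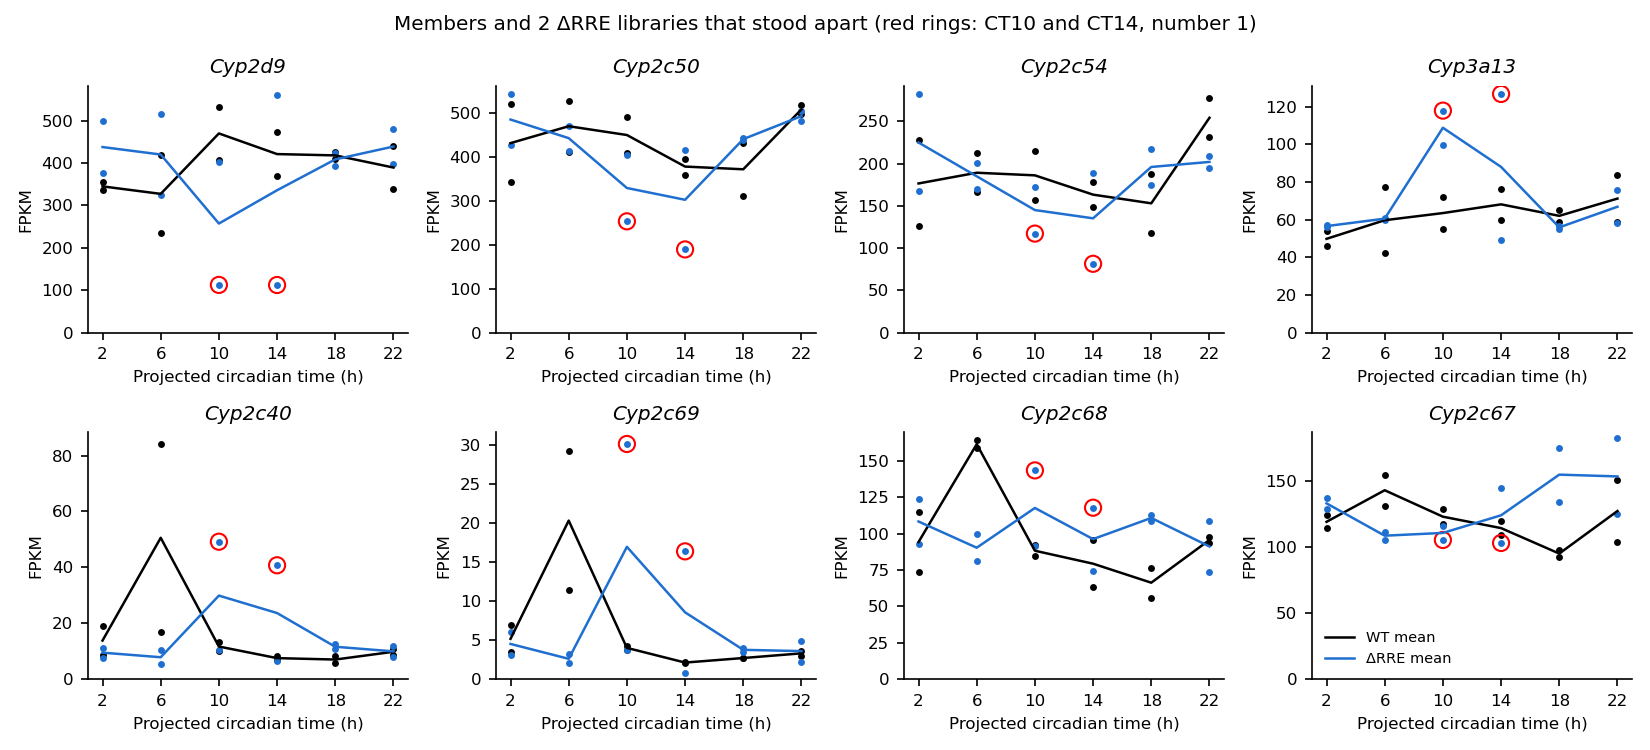
FPKM of 8 members against projected circadian time in hours, with points for libraries, lines for means (black WT, blue ΔRRE) and red rings around the 2 ΔRRE libraries high in acute-phase transcripts. The ringed values are the lowest of all for Cyp2d9, Cyp2c50 and Cyp2c54 and the highest for Cyp3a13, while Cyp2c40 and Cyp2c69 are also high in a WT library of CT6.

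Among the genes that serve the enzymes, Alas1 and Por had the largest rhythms and peaked near Cyp2a5. Of 17 genes of electron transfer and heme metabolism, 5 had a shared rhythm, 29.4% against 30.6% of all genes: Alas1 (amplitude 1.58, peak at CT13.7), Por (0.94, CT12.4), Cyb5b (0.50, CT0.3), Blvra (0.19, CT9.5) and Fech (0.14, CT10.5). None of the 17 differed between the genotypes in level or rhythm at an adjusted p under 0.05 (limma). At an unadjusted p under 0.05 there was 1 for level (5.88% against 8.91% of all genes) and 0 for rhythm (2.84% of all genes). Por stood in WT at 203 and 271 FPKM and in ΔRRE at 306 and 152 FPKM at CT14, and at 72.1, 41.0, 82.9 and 53.8 FPKM at CT2.

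Of 18 receptors and liver factors, 10 had a shared rhythm, 55.6% against 30.6% of all genes, among them Cebpa, Cebpb, Foxa2, Hnf4a, Nr0b2, Nr1h3, Nr1i2, Ppara and Rxra. Within 1 genotype 2 passed in WT (11.1% against 10.3% of all genes) and 0 in ΔRRE (4.57% of all genes). At an unadjusted p under 0.05 (limma) there were 9 in WT (50% against 27.6% of all genes) and 4 in ΔRRE (22.2% against 22.6%). Nr1i2 (PXR) had an amplitude of 0.25 with a peak at CT14.9, and Nr1i3 (CAR) one of 0.30 with a peak at CT14.8 that did not pass (limma adjusted p = 0.0734). Of the PAR bZIP factors and their antagonist, Dbp (3.39, CT10.9), Tef (1.41, CT12.6) and Nfil3 (1.29, CT22.8) were rhythmic, and Hlf was not (0.22, limma adjusted p = 0.172). By the fitted peaks, Dbp came before Cyp2a5 and Cyp2a4, and Nfil3 in the opposite part of the day. Whether these factors act on the members was not tested. Cyp2b10, which held the same variant of the D-box, had its fitted shared peak at CT21.8 and did not pass (limma adjusted p = 0.165).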

How the data were processed

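Per the labels, poly(A) RNA of mouse livers was made into directional libraries, 2 per genotype and time point. The submitters' processing notes name Trimmomatic 0.39, HISAT2 2.1.0, StringTie 1.3.5 and mm10. The annotation is not given in the sources used here. The authors deposited FPKM values per gene and library, without pooling. Values down to 1e-06 FPKM occurred, so whole reads could not be recovered, the depth behind each value is unknown and no counting error is given.

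Members and gene lists were chosen with earlier results of these data known. Genes averaging 1 FPKM or more were analysed as log2(FPKM + 0.1) with limma 3.58.1 in R 4.3.3 (moderated tests, intensity trend, Benjamini-Hochberg adjustment over 11244 genes). The models held a cosine and a sine of 24 h per genotype, for both together with genotype as a term, or with their interaction, and genotype with time point as a factor for levels. BIO_CYCLE, which the study used, was not run, and the fitted p took its place in the criteria. The fits were tested on simulated data. Python 3.11.15, pandas 2.3.3 and matplotlib 3.10.9 served for the rest. Identity between members and shared windows of 150 bases were computed from GENCODE M21 transcripts, and promoters are those of RefSeq.

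Named were members with an adjusted p under 0.05 in a test (where fewer than 5, also the 5 smallest p), the 10 most abundant, the leading gene of each subfamily and the 3 on each side of 1 FPKM, and of the lists Por, Alas1, Nr1i2, Nr1i3, Dbp, Tef, Hlf, Nfil3 and genes past a test. Genes withheld from these reports are not given here. Alternatives were other constants, filters, a rescaling, a prior without trend, time as a factor, the replicate number as a term, other limits and leaving out each library. The exact permutation of the rhythm difference and leaving out both libraries that stood apart were added after seeing the data.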

Additional observations from a re-analysis of the deposited data

How the results depend on the processing

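The counts of members past an adjusted p under 0.05 depended on the processing mainly within 1 genotype. The share of all genes under each alternative is not given, so these counts do not show more or fewer calls than among all genes. In WT the count of 5 became 1 without a filter on low values (Cyp2j5), 3 with a prior without trend and 1 with time point as a factor (Cyp2c69). In ΔRRE the count of 3 became 1 without a filter, 1 with time point as a factor and 1 without the 2 libraries that stood apart. Leaving out 1 library at a time gave 2 to 6 in WT (lowest without the first library of CT2), 1 to 4 in ΔRRE and 9 to 12 for the shared rhythm. Differences in rhythm and in level stayed at 0 members under all alternatives. The members meeting the study's criteria fell from 15 to 5 in WT and from 12 to 3 in ΔRRE with an adjusted p in their place, and to 6 in ΔRRE with a ratio limit of 2. Leaving out 1 library gave 14 to 20 in WT and 11 to 21 in ΔRRE, highest without the second library of CT14. The summed level stayed within 1 SD throughout, at 9703 to 9995 FPKM in WT and 9541 to 9784 FPKM in ΔRRE with 1 library left out.

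The same-numbered libraries of the genotypes had correlations of their deviations between -0.12 and 0.21 over the time points, which did not exceed 0.1 in every pair, so they were not taken as paired. With the replicate block the WT count was 9, of which 4 were among the 5 (without Cyp2j5). The ΔRRE count was 3 and the shared count 12, including the 9. For these counts too the share of all genes is not given, so they do not show an excess of members. No member passed in level or in difference of rhythm.

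Genotype differences near 0 changed sign. With the libraries rescaled 5 members turned: Cyp2d10 was at -0.0178, Cyp2d26 at -0.0181, Cyp3a11 at -0.00292, Cyp2c37 at -0.00303 and Cyp2c40 at -0.032. Without the 2 libraries that stood apart, 7 turned: Cyp2c50 was at 0.0612, Cyp2d9 at 0.19, Cyp2e1 at 0.0131, Cyp2c54 at 0.091, Cyp2r1 at 0.0995, Cyp2d11 at 0.0814 and Cyp2c40 at -0.42. With 1 library left out, run for the 10 most abundant members and the 5 of smallest p, the ranges of those that turned were -0.0224 to 0.0581 for Cyp2d10, -0.00169 to 0.0591 for Cyp2d26, -0.27 to 0.00115 for Cyp2d9 and -0.0311 to 0.115 for Cyp3a11. Cyp2a5 stayed between -0.77 and -0.57. The causes were not tested. The unknown depth limits the members near 1 FPKM most, and with 2 libraries per group single libraries weigh heavily.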

Other observations

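P450 genes of other families gave 25 genes of at least 1 FPKM, of which 6 (24.0%) had a shared rhythm at a limma adjusted p under 0.05, against 30.6% of all genes. Cyp7a1, the rate-limiting enzyme of bile acid synthesis, peaked at CT14.4 with an amplitude of 0.84. Cyp8b1, which directs the pathway to cholic acid, peaked at CT1.3 with an amplitude of 0.79. Cyp26a1, which degrades retinoic acid, peaked at CT23.4 with 0.96, and Cyp4f17, Cyp4b1 and Cyp20a1 had amplitudes of 0.51, 0.42 and 0.18. As among the members of families 2 and 3, no gene of the other families passed in level or in difference of rhythm (limma), with 3 and 0 genes at an unadjusted p under 0.05, against 8.91% and 2.84% of all genes.

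Libraries that bear the same number shared a pattern in the members across groups. Cyp2c70 was lower in the library numbered 1 than in that numbered 2 in all 12 groups, with a mean log2 difference of -0.53 ± 0.40 (SD over groups). In 11 of 12 groups Cyp3a59, Cyp2c38 and Cyp2b9 were higher in number 1, by 0.66, 0.80 and 2.35. These members were chosen after their values were seen. Number 1 was higher in 10 or more groups for 6 members (16.7%) and for 5.16% of all genes, and higher in 2 or fewer groups for 3 members (8.33%) and 4.46% of all genes. The summed male-biased genes outside the families were lower in number 1 in 12 of 12 groups, and the summed female-biased genes were higher in 11 of 12. The labels do not say what the numbers stand for, and the counts with the number as a term are given with the other alternatives.

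The markers of other cells and zones moved as follows. Of 19 acute-phase genes tested, 18 were higher in ΔRRE, with a median log2 difference of 0.37, and 9 had an unadjusted p under 0.05 but none an adjusted p under 0.05 (limma). Of all genes 65.5% were higher and 8.91% had an unadjusted p under 0.05. Without the 2 ΔRRE libraries that stood apart, 17 acute-phase genes were higher with a median of 0.23, and 4 had an unadjusted p under 0.05. All 5 red cell genes were higher, with a median of 0.69, and 4 of them had an unadjusted p under 0.05, against a median of 0.36 and 0 genes without the 2 libraries. Of 10 periportal markers 9 were higher, with a median of 0.25, and of 10 pericentral markers 8 were lower, with a median of -0.11. Without the 2 libraries 9 periportal markers were higher with a median of 0.11, and 5 pericentral markers were lower with a median of -0.0084. Of the male-biased genes, Elovl3 had a shared rhythm with an amplitude of 2.43, and of the 3 female-biased genes tested Fmo2 had one with 0.88. Beside 30.6% of all genes, shared rhythms were also called for 4 of 5 stellate cell markers, 3 of 5 endothelial, 2 of 3 bile duct, 0 of 5 Kupffer cell, 0 of 5 red cell, 3 of 7 hepatocyte, 1 of 10 pericentral, 3 of 10 periportal and 6 of 19 acute-phase genes, and the 1 intestinal marker tested, Fabp2, which the liver also expresses, had none.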
